A study of Mus musculus with 69 samples.

Results

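The comparison described here set p53KO–emiRFP cells against WT–emiRFP cells after 48 h in mosaic gastruloids, across all genes. Its members were picked by the sample labels and are 6 of the 69 libraries of the series, 3 of each population. Gastruloids are aggregates of mouse embryonic stem (mES) cells that differentiate in culture, and mosaic ones mix cells of different clones. All cells derived from the E14tg2A mES line. The WT–emiRFP clone expressed the nuclear fusion H2B–emiRFP670 from a CAG promoter. The p53KO–emiRFP cells were a single daughter clone of it, selected with Nutlin-3a, with a homozygous frameshift insertion in exon 4 of Trp53. The WT–emiRFP cells were sorted from gastruloids seeded with 150 WT–mCherry and 150 WT–emiRFP cells, and the p53KO–emiRFP cells from gastruloids seeded with 150 WT–mCherry and 25 p53KO–emiRFP cells. Both were collected at 48 h, the time at which the standard protocol starts its pulse of the Wnt agonist ChIR. Genotype, clone, the neighbouring cells and the number of cells seeded changed together between the groups and cannot be told apart in this comparison. In such bulk samples, fewer cells that express a gene and less RNA per cell cannot be told apart either. The WT–mCherry cells sorted from both kinds of gastruloid, 3 libraries each, supplied 6 further WT libraries of the same time.

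Trp53 encodes p53, a transcription factor that is held low by the ubiquitin ligase Mdm2 and accumulates after DNA damage or other stress. It binds a repeated decamer in promoters and introns and switches on genes for cell cycle arrest, apoptosis, DNA repair and metabolic restraint. Mouse ES cells hold much p53 even without added damage, and in the early embryo cells with more p53 activity are known to lose out to neighbours with less. Cells of the formative epiblast, which have left naive pluripotency and are not yet committed to a germ layer, are marked by Fgf5, Otx2, Dnmt3b and Pou3f1.

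The 6 libraries held 46388381 to 56453570 counts. Values below are normalized counts, which are raw counts divided by a median-of-ratios size factor, unless another scale is named. A gene was called when its adjusted p was under 0.05 in edgeR's quasi-likelihood test. The histone gene H2bc14, whose counts followed the H2B–emiRFP670 clones, was at 5473 to 7938 in p53KO–emiRFP, 6081 to 8948 in WT–emiRFP and 22.5 to 64.6 in the 6 WT–mCherry libraries. The formative marker Dnmt3b was abundant in both groups, at 190312 to 200976 and 188166 to 196893. Mitochondrially encoded transcripts took 0.880 to 1.11% of the counts in p53KO–emiRFP and 1.30 to 1.46% in WT–emiRFP. The median log2 fold change of a chromosome lay between -0.020 and 0.042 for the 19 autosomes and X.

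Trp53 itself (chromosome 11, 69580348 to 69591873, GRCm38.p6) was at 1773, 1904 and 1761 in p53KO–emiRFP and at 15255, 16714 and 15838 in WT–emiRFP. No p53KO–emiRFP library came near a WT one, and the 6 WT–mCherry libraries, at 16088 to 17164, stood with WT–emiRFP. The fall was 8.8-fold, a log2 fold change of -3.14 ± 0.05 (SE, n = 3 per group, adjusted p = 1.1e-15). Transcripts of the gene were still counted in the mutant clone. The level matched the labels in all 12 libraries of 48 h.

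Among 17662 genes tested, 3896 (22.1%) were called. Of these, 1822 (10.3%) were higher and 2074 (11.7%) lower in p53KO–emiRFP cells. The falls reached further than the rises. A change of at least 1 on the log2 scale was called upward for 140 genes and downward for 381, and one of at least 3 upward for 0 genes and downward for 51. Typical calls were small, with a median change of 1.22-fold among the genes called higher and 1.37-fold among those called lower. With the replicate number as a block, 7259 genes were called, 3945 higher and 3314 lower, and these included all 3896. Of the 140 and 381 genes, 19 and 159 had a mean log2 CPM of at least 1, so most of the genes in both counts were under that level.

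**Figure D1:**
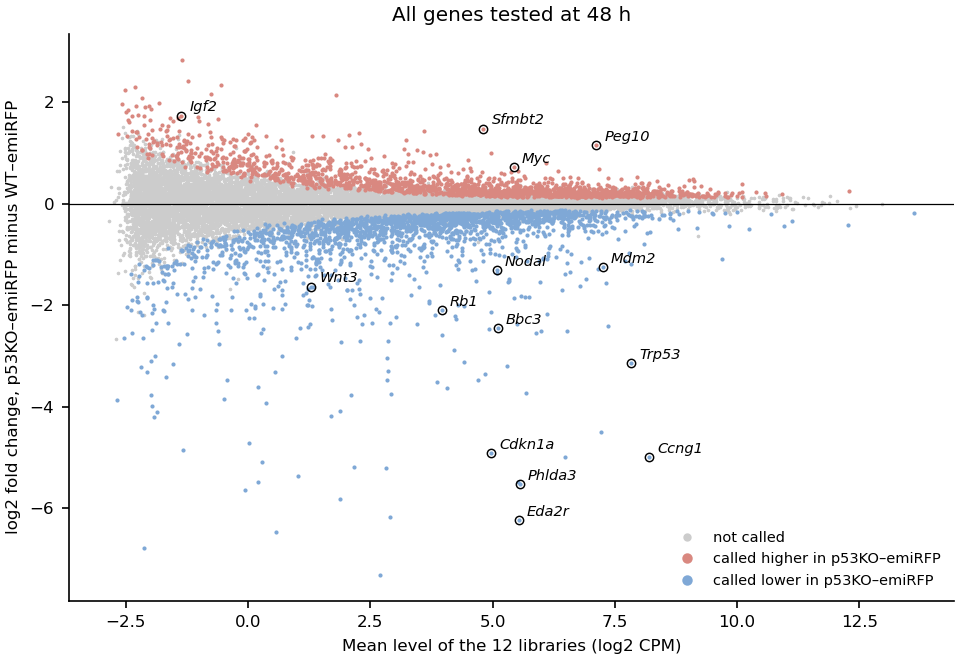
Each point is 1 of the 17662 genes tested at 48 h, with its mean level (log2 CPM) on the x axis and its log2 fold change, p53KO–emiRFP minus WT–emiRFP, on the y axis. Red points were called higher (1822 genes), blue points called lower (2074), and grey points were not called. The blue points reach much further from 0 than the red ones.

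The 12 largest falls among well-expressed genes were Eda2r, Phlda3, Plk2, Ccng1, Inpp5d, Cdkn1a, Trp53inp1, Got1l1, Zfp365, Dcxr, Ddit4l and Lif. All 12 lay below the 9 WT libraries of 48 h, as did 10.2% of all genes tested and 70.8% of the genes called lower. The 12 were picked as large calls without overlap with WT–emiRFP, so this was largely set by the choice. The deepest was Eda2r, which encodes a receptor of the tumour necrosis factor receptor family. It was at 38.2, 50.2 and 49.3 in p53KO–emiRFP against 3314, 3212 and 3840.2 in WT–emiRFP, a 75.1-fold fall (log2 fold change -6.23 ± 0.15, adjusted p = 4.6e-14). Phlda3, an inhibitor of the survival kinase Akt, was at 68.5, 91.8 and 93.6 against 4043, 3736 and 3871 (-5.52 ± 0.10, adjusted p = 3.1e-15). Plk2, a polo-like kinase, was at 82.0, 83.2 and 60.4 against 3300.2, 3184 and 3531 (-5.48 ± 0.11, adjusted p = 6.1e-15). In each of these genes every mutant library was far below every WT one.

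The cyclin G1 gene Ccng1, whose product acts in the loop of p53 and Mdm2, was the most abundant of the 12 in WT–emiRFP cells. Its p53KO–emiRFP libraries were at 734, 729.6 and 733 and its WT–emiRFP libraries at 22618, 21728 and 25284 (-4.99 ± 0.08, adjusted p = 1.1e-15). The Cdk inhibitor p21, encoded by Cdkn1a, halts the cell cycle before S phase. Its transcript was at 109, 89.4 and 69.5 against 2652, 2695 and 2628 (-4.90 ± 0.10, adjusted p = 9.6e-15). Trp53inp1, a stress-induced partner of p53, was at 472, 474 and 547 against 10359.8, 10249 and 12976 (-4.49 ± 0.15, adjusted p = 4.7e-12). Inpp5d, the lipid phosphatase SHIP1, was at 255, 225 and 180.2 against 6855, 6951 and 6973 (-4.98 ± 0.09, adjusted p = 1.1e-15). In all 4 genes the groups were far apart.

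Among the other 5 of the 12 was Lif, the cytokine that sustains naive mES cells. It was at 58.4, 37.9 and 43.3 in p53KO–emiRFP and at 496, 557 and 514 in WT–emiRFP (-3.48 ± 0.13, adjusted p = 1.0e-11). Ddit4l, an inhibitor of mTOR signalling (-3.51 on the log2 scale), and the zinc finger gene Zfp365 (-3.72) also fell. So did Got1l1, related to an aminotransferase gene (-3.76), and Dcxr, a carbonyl reductase gene (-3.63). A further 7 genes, picked after their values were seen, fell by more than Lif from over 100 normalized counts in WT–emiRFP cells but were too low on average to be among the 12. They were Inka2, Dnaic1, Ptprv, Zfp750, Dscaml1, Cd80 and Alox5. Inka2, which encodes an inhibitor of a p21-activated kinase, was at 2.25, 6.12 and 1.01 against 473, 503 and 502 (-7.31 ± 0.22, adjusted p = 6.7e-13).

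**Figure D2:**
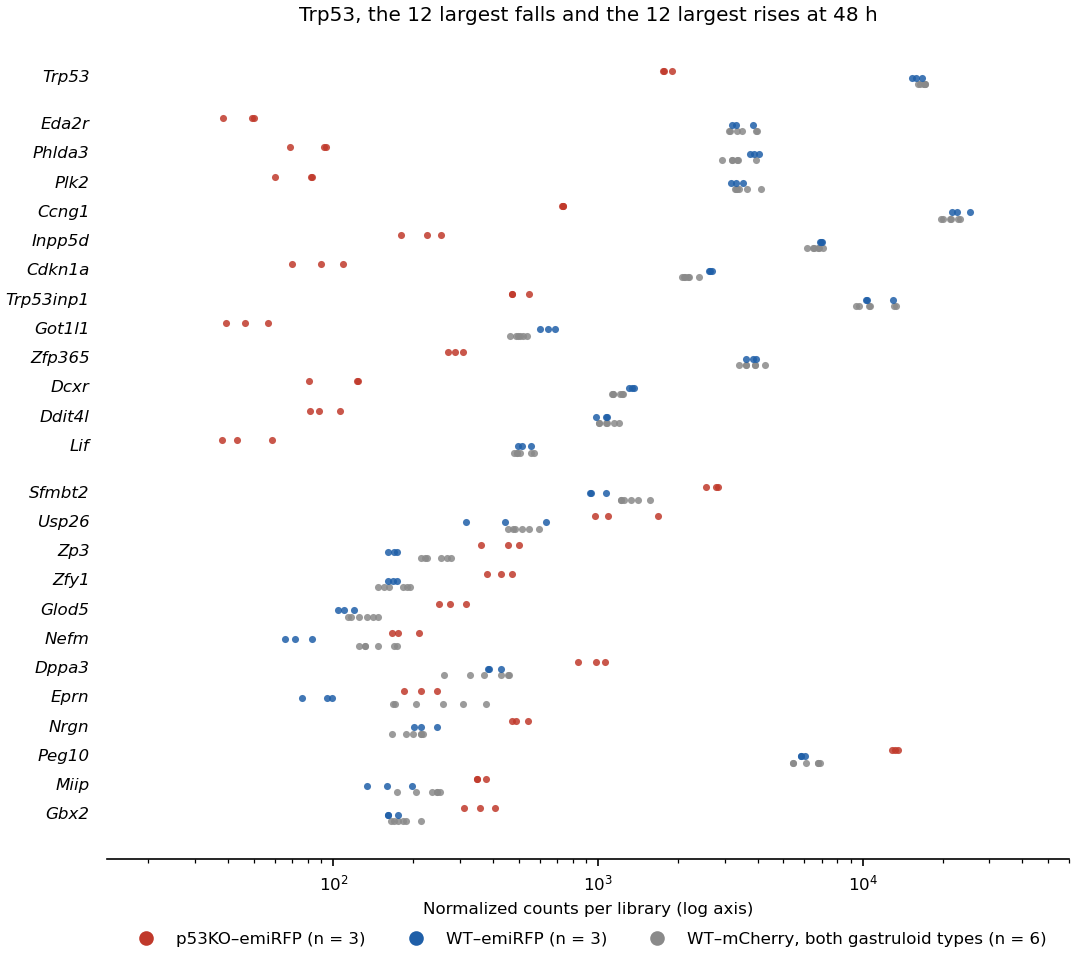
Each point is 1 library of 48 h, with its normalized counts on a log x axis, for Trp53, the 12 largest falls and the 12 largest rises. Red points are p53KO–emiRFP (n = 3), blue points WT–emiRFP (n = 3) and grey points WT–mCherry of both kinds of gastruloid (n = 6). For all 12 falls the red points lie below every other point, and for the rises Nefm and Eprn the grey points overlap the red ones.

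The p53 decamer, the repeated unit of the consensus p53 response element, was searched for by that consensus in RefSeq promoter windows of GRCm38.p6, 250 bases before to 50 after a start. The consensus equals its own reverse complement, so the search covered both strands. Of the 12 genes, 10 had a window, and those of Ccng1, Cdkn1a and Ddit4l held the decamer. It was found in 16.9% of the 254 genes with a window that were called lower by at least 1 on the log2 scale, in 8.14% of the 86 called higher by as much, and in 8.30% of the 12258 tested genes with a window. All 32851 windows gave a share of 8.36%. A match is a stretch of letters and not a measured binding site, and these windows leave out introns and distal elements. The matches are shown for these 3 genes, whose transcripts fell at least 11.4-fold, in capitals with up to 50 bases on each side, on the strand of the gene.
Ccng1 (chr11:40755412-40755521, minus strand): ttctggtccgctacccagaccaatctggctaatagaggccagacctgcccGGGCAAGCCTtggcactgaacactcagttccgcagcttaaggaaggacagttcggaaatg
Cdkn1a (chr17:29090856-29090978, plus strand): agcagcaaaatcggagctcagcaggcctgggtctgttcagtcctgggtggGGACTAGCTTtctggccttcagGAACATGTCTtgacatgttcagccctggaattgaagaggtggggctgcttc
Ddit4l (chr3:137623532-137623641, plus strand): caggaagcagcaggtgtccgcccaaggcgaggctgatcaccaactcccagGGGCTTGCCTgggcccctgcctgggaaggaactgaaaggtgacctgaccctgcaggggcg
In Cdkn1a, which had 2 windows, the matches lay in the upstream one, 12 bases apart. Only exact matches are in capitals, so decamers with a mismatch beside them are not marked.

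The lists of p53 targets were mostly lower, with some members that were not called. Of 68 genes in 5 lists, 66 passed the filter on low counts, 44 were lower, 5 were higher and 17 were not called. Among all genes tested 11.7% were called lower and 10.3% higher, so the 5 higher (7.58%) were no more than the share of all genes. With the block 45 were lower and 9 higher. The median log2 fold change was -1.08, beside 0.019 for all genes tested. All 44 lay below the 9 WT libraries, as did 70.8% of the genes called lower and 10.2% of all genes tested. Many of these genes are known as targets because they lose expression without p53, so their direction is not independent information.

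Cell cycle arrest genes had the lowest median, -1.80, with 9 of 12 lower (75%, beside 11.7% of all genes) and 0 higher (1 with the block). Beside Plk2, Cdkn1a and Zfp365 these were Ptprv, a receptor phosphatase gene, Btg2, an antiproliferative factor, and Psrc1, Gtse1, Rprm and Ckap2. Ptprv was at 12.3, 12.2 and 14.1 against 483, 488 and 486 (-5.21 ± 0.13, adjusted p = 1.1e-13). Both groups were tight and far apart. Gadd45a (0.11), Plk3 (0.21) and Sfn (-0.11), arrest genes in other settings, were not called.

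Of 16 tested apoptosis targets, 12 were lower (75%, beside 11.7% of all genes) and 2 higher (12.5%, beside 10.3%), with a median of -1.02. Bbc3, which encodes the BH3-only killer Puma, was at 463, 535 and 423 in p53KO–emiRFP and 2691, 2605 and 2462 in WT–emiRFP (-2.45 ± 0.08, adjusted p = 3.9e-12). Bax, the pore former on which such proteins act, fell by 0.99, and Apaf1, which assembles the apoptosome, fell by 1.54. Fas, a death receptor gene, had few counts, with 0, 1.22 and 4.03 against 17.7, 9.94 and 19.6 (-3.00 ± 0.61, adjusted p = 0.0023). In the fit with only the 6 compared libraries Fas was not tested. The other BH3-only target, Pmaip1 (Noxa), went the opposite way. It was at 7071, 7477 and 7551 against 6597, 6347 and 6811, a rise of 0.16 ± 0.05 (adjusted p = 0.025), while the WT–mCherry libraries were higher still, at 7701 to 8715. The call of Pmaip1 was lost with all 69 libraries and without any one of p53KO–emiRFP replicates 2 and 3 and WT–emiRFP replicates 1 and 2. Trp53i13 was the other target called higher, by 0.39.

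Of 9 DNA repair targets tested, 2 were lower and 0 higher (2 and 1 with the block), near the 22.1% called among all genes, and the median was -0.030. Polk, a translesion polymerase gene, was at 260.5, 258 and 330.2 against 1160.1, 1362 and 1446 (-2.22 ± 0.13, adjusted p = 2.7e-09). Ercc5, a nuclease gene of nucleotide excision repair, fell by 1.55. The excision repair genes Xpc (-0.04) and Ddb2 (-0.03) and the ribonucleotide reductase gene Rrm2b (-0.17) were not called.

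In the metabolic list 13 of 19 tested were lower (68.4%) and 2 higher (10.5%), against 11.7% and 10.3% of all genes, with a median of -0.90. With the block 14 were lower and 4 higher. Cpt1c, a carnitine palmitoyltransferase gene, was at 341, 345 and 302 against 2939.8, 3163 and 2916 (-3.19 ± 0.07, adjusted p = 1.8e-14). The adenylate kinase gene Ak1 (-2.47), the epoxide hydrolase gene Ephx1 (-2.46) and the mTOR restrainers Ddit4 (-1.70) and Sesn2 (-1.14) fell as well. Tigar (0.11), Gls2 (-0.13) and Sesn1 (-0.05) were not called, and the 2 called higher, Prkab1 and Prkab2, encode subunits of AMP-activated kinase. Of the 10 other targets, 8 were lower and 1, Sertad3, higher, with a median of -1.47. The 8 included Zmat3, an RNA-binding protein gene (-1.56), and the noncoding RNAs Pvt1 (-1.39) and Trp53cor1 (-2.56).

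Genes that regulate p53 fell in 8 of 13 tested and rose in 0 (8 and 3 with the block), with a median of -0.31, where 11.7% of all genes were called lower and 10.3% higher. Mdm2, the ligase that degrades p53 and is itself a p53 target, was at 4151, 4141 and 4269 in p53KO–emiRFP and at 9806, 9675 and 10470.1 in WT–emiRFP (-1.25 ± 0.06, adjusted p = 5.6e-10). Its partner Mdm4 (-1.30) and the family member Trp73 (-1.74) fell too. The ligase gene Trim24 (0.04), the deubiquitinase gene Usp7 (0.02) and the deacetylase gene Sirt1 (0.19) were not called.

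**Figure D3:**
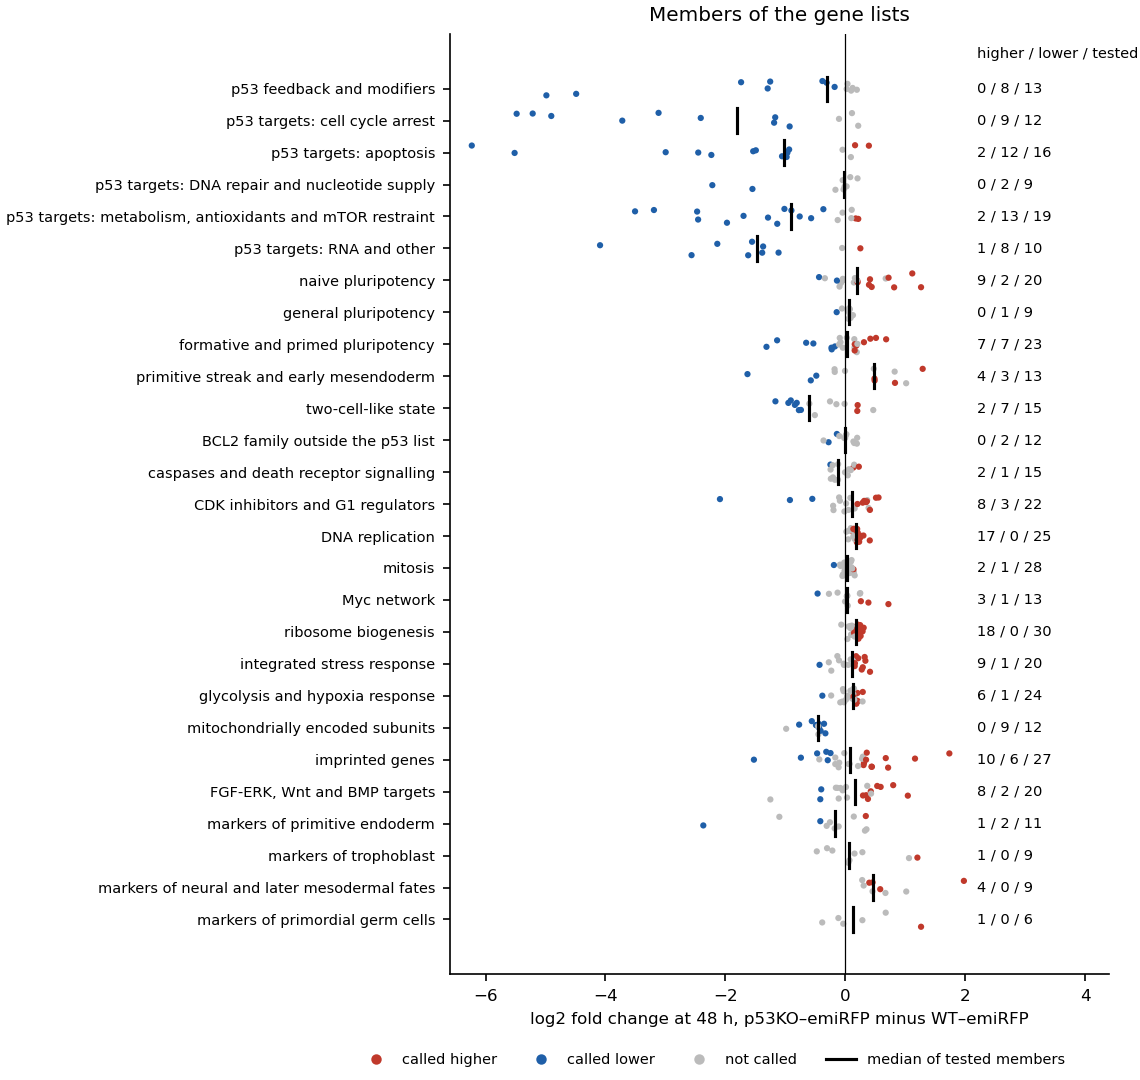
Each point is a tested member of one of 27 gene lists, placed by its log2 fold change at 48 h, p53KO–emiRFP minus WT–emiRFP. Red was called higher, blue called lower and grey not called. The lists of p53 targets spread far to the left, while DNA replication (17 higher, 0 lower of 25) and ribosome biogenesis (18 higher, 0 lower of 30) sit just right of 0.

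The 12 largest rises among well-expressed genes ran from 2.17-fold to 2.79-fold. They were Sfmbt2, Usp26, Zp3, Zfy1, Glod5, Nefm, Dppa3, Eprn, Nrgn, Peg10, Miip and Gbx2, and 10 of them lay above all 9 WT libraries. Of all genes tested 9.1% did so, and of the genes called higher 58.9%. These 12 were also picked without overlap with WT–emiRFP, so the count is not independent of the choice. A further 2 genes without a proper name rose by more than the last of these. Sfmbt2, an imprinted gene of the Polycomb group, was at 2840.5, 2549 and 2785 in p53KO–emiRFP and 936, 930.1 and 1067 in WT–emiRFP (1.48 ± 0.07, adjusted p = 3.3e-10). Peg10, an imprinted gene of retrotransposon origin, was at 12900.1, 13514 and 13198 against 5851, 5841 and 6015 (1.16 ± 0.05, adjusted p = 6.1e-11). Dppa3 (Stella), a maternal factor that guards DNA methylation in early embryos, was at 1061, 839.8 and 978 against 431, 382 and 388 (1.26 ± 0.14, adjusted p = 8.2e-06). The 3 genes stood clear of every WT library.

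Others of the 12 included Zp3, an egg coat glycoprotein gene, at 504, 457 and 359 against 169.6, 161 and 173 (1.39 ± 0.13, adjusted p = 1.5e-06). Zfy1, a zinc finger gene of the Y chromosome, was at 429, 379 and 472 against 173, 161 and 169 (1.35 ± 0.12, adjusted p = 4.3e-07). For Zfy1 the WT–mCherry libraries, at 147 to 195, held the range of WT–emiRFP, and for Zp3 they lay between the groups, at 215 to 277. Nefm, a neurofilament subunit gene, was at 166, 175 and 210.4 against 71.8, 82.8 and 65.8, but at 125 to 173 in the WT–mCherry libraries. The noncoding RNA Eprn was at 246, 214 and 184 against 94.2, 98.3 and 76.2, and at 168 to 377 in WT–mCherry. In Nefm and Eprn it was the WT–emiRFP cells that stood apart.

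Of the genes called higher, 1074 (58.9%) had all 3 p53KO–emiRFP libraries above the 9 WT libraries of 48 h, and of those called lower, 1468 (70.8%) had them below. Of all genes tested, 9.1% lay above and 10.2% below the 9 WT libraries. Against the 3 WT–emiRFP libraries alone, 18.4% of all genes tested lay above and 18% below without overlap. Conversely, WT–emiRFP cells stood outside the other 9 libraries, p53KO–emiRFP included, for 376 genes called higher (20.6%) and 376 called lower (18.1%). The share among all genes tested was not counted, so these counts cannot be set against it. Of the 381 genes lower by at least 1 on the log2 scale 352 lay below all WT libraries, and of the 140 higher by as much 81 lay above them.

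Pluripotency genes were counted in 3 lists, beside 10.3% of all genes called higher and 11.7% called lower. Of 9 general pluripotency genes 0 were higher and 1, Tdgf1, lower (11.1%), with 2 and 1 under the block. The call of Tdgf1 was lost without the low-count filter, with only the 6 compared libraries, with all 69 libraries, and without any one of p53KO–emiRFP replicates 1 and 3 and WT–emiRFP replicates 2 and 3. Pou5f1, the gene for Oct4, was at 31697, 31619 and 28255 against 31719, 28615 and 28683 (0.04 ± 0.06, adjusted p = 0.69). Of 20 naive genes 9 were higher (45%) and 2 lower (10%), with a median of 0.20 and 11 higher and 4 lower under the block. But 3 of the naive genes lay above all 9 WT libraries and 3 below them, beside 9.1% and 10.2% of all genes tested. The summed level of the naive genes was 63840 to 68422 in p53KO–emiRFP and 63651 to 65294 in WT–emiRFP. It was 79465 to 85841 in the WT–mCherry cells sorted beside WT–emiRFP cells and 68708 to 72826 in those beside p53KO–emiRFP cells. Those higher were led by Dppa3, by Gbx2, by the nuclear receptor gene Nr5a2 (0.81 ± 0.08) and by Tcl1, an Akt coactivator (0.72 ± 0.12). Gbx2, a homeobox factor of the naive network, was at 312, 408 and 356 in p53KO–emiRFP and 160.2, 160.2 and 175 in WT–emiRFP (1.12 ± 0.12, adjusted p = 6.0e-06).

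Nanog, a core pluripotency factor, was lower. It was at 2346, 2368 and 2205 against 3114, 3152 and 3109.5, with WT–mCherry cells at 3197 to 4532 (-0.44 ± 0.05, adjusted p = 4.3e-06). The other lower naive gene was Fgf4 (-0.14). The naive markers Klf4 (0.16, adjusted p = 0.37), Esrrb (-0.04, adjusted p = 0.70) and Tfcp2l1 (-0.07) were not called, nor was the surface marker Pecam1 (-0.04, adjusted p = 0.72). The naive marker Zfp42 rose by 0.41, within the range of the WT–mCherry libraries.

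Among 23 formative and primed genes 7 were higher and 7 lower (30.4% each, beside 10.3% and 11.7% of all genes), with a median of 0.024. With the block 11 were higher and 9 lower. Of the defining formative markers, Dnmt3b was at 190312, 200238 and 200976 against 196592, 188166 and 196893 (0.02 ± 0.04, adjusted p = 0.73) and overlapped. Otx2 (-0.04 ± 0.06, adjusted p = 0.68) and Pou3f1 (0.15) were not called either. Fgf5 was at 3580.4, 3515 and 3750.5 against 4498, 4180.0 and 4020.2 (-0.23 ± 0.05, adjusted p = 0.0074), a small fall without overlap. The call of Fgf5 was not kept under every alternative processing. The 7 lower also included the gene for the ligand Nodal, which patterns the epiblast, and those for its inhibitors Lefty1 and Lefty2.

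Nodal was at 1003, 924 and 841 in p53KO–emiRFP and 2192, 2286 and 2405 in WT–emiRFP (-1.32 ± 0.07, adjusted p = 9.8e-10). The WT–mCherry libraries were at 1938 to 2526, so the mutant cells stood apart. Its antagonist Lefty1 was at 2643, 2229 and 2094 against 5659, 5119 and 4550.0 (-1.14 ± 0.12, adjusted p = 6.3e-06), and Lefty2 at 931, 932 and 909 against 1443, 1357 and 1561 (-0.65 ± 0.09, adjusted p = 0.00012). For both Lefty genes, WT–mCherry cells overlapped the mutant range, at 2391 to 4373 and 582 to 1032. Dnmt3l, a cofactor of the de novo methyltransferases, was at 11114, 11229 and 10419.8 against 6596, 6935 and 6915, a rise of 0.68 ± 0.05 (adjusted p = 8.4e-08).

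Of 13 primitive streak genes tested 4 were higher (30.8%) and 3 lower (23.1%), beside 10.3% and 11.7% of all genes, and 5 further genes were under the count filter. Wnt3, the ligand that starts the streak in the embryo, was at 55.0, 62.4 and 57.4 against 181, 162 and 199 (-1.63 ± 0.16, adjusted p = 1.8e-06), below all WT libraries. Cdx2, a caudal homeobox factor, was at 88.7, 105 and 89.6 against 37.7, 44.2 and 33.5 (1.29 ± 0.19, adjusted p = 0.00016). Eomes rose by 0.49, and the streak markers T (0.47) and Mixl1 (-0.01) were not called.

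Targets of growth factor signals were higher in 8 (40%) and lower in 2 (10%) of 20, beside 10.3% and 11.7% of all genes, with a median of 0.16. With the block 9 were higher and 4 lower. Spry4, a feedback inhibitor of FGF signalling, was at 4897, 5646 and 5904 against 2859.7, 3443 and 3157 (0.80 ± 0.09, adjusted p = 1.4e-05), and Spry2 and Dusp4, of the same kind, rose by 0.38 and 0.29. Axin2, a feedback target of Wnt signalling, was at 1547, 1613 and 1607 against 1125, 1122 and 1052 (0.53 ± 0.05, adjusted p = 2.9e-06). All 4 of these genes lay above every WT library. The BMP targets Id1 and Id3 rose by 1.04 and 0.59, and Bmp4 by 0.42, while Smad7 (-0.42) and Bmp7 (-0.40) fell. The immediate early genes Fos (-1.25) and Egr1 (-0.11) were not called.

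**Figure D4:**
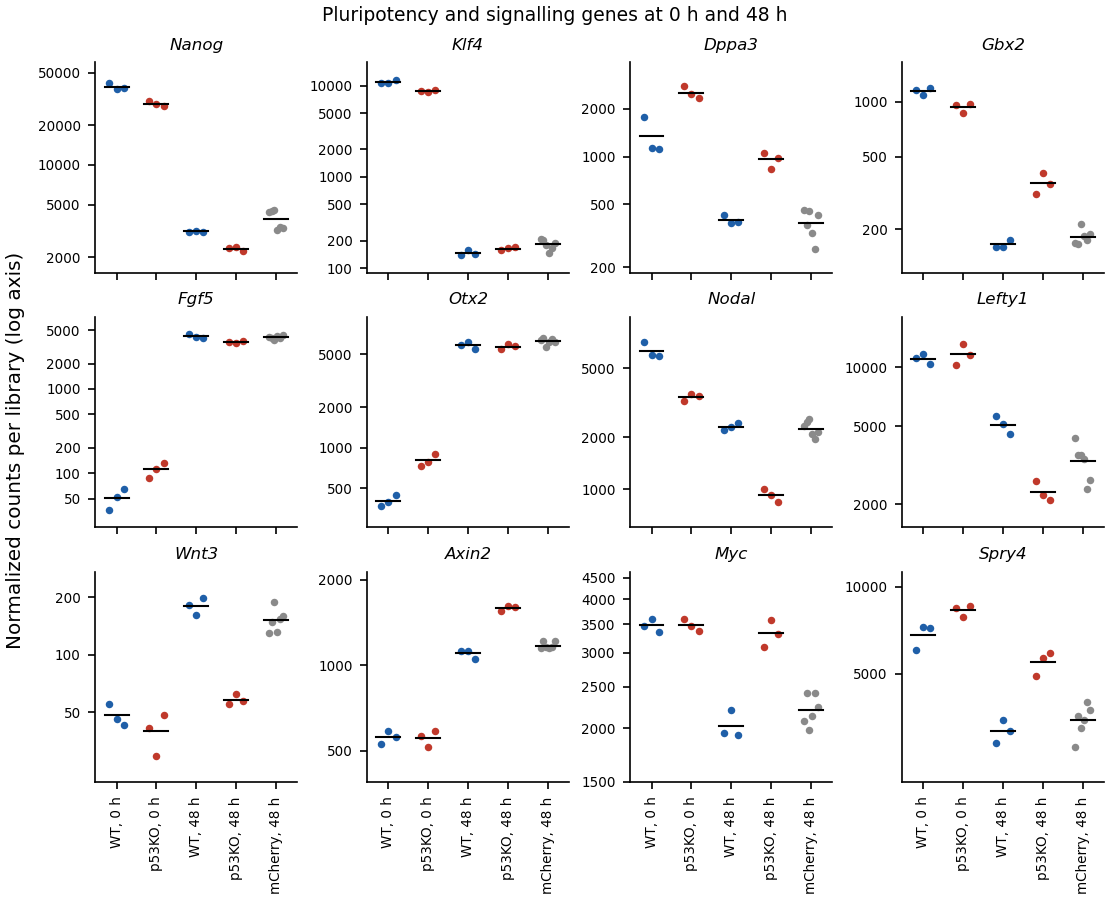
Each panel is a gene and each point a library, with normalized counts on a log y axis. Groups are the 2 emiRFP populations at 0 h and 48 h, n = 3 each, and WT–mCherry of both kinds of gastruloid at 48 h (n = 6). At 48 h the p53KO–emiRFP points lie below all others for Nanog, Nodal and Wnt3 and above all others for Dppa3, Gbx2, Axin2, Myc and Spry4.

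Myc, a driver of growth whose level is known to sort winners from losers in epiblast cell competition, was at 3103, 3590.5 and 3322 in p53KO–emiRFP and 1949, 2204 and 1932 in WT–emiRFP (0.72 ± 0.08, adjusted p = 8.2e-06). All 3 libraries were above the 9 WT ones. Mycn was at 14096, 15651 and 15970.5 against 11744, 11862 and 11417 (0.38 ± 0.06, adjusted p = 0.00012), with the WT–mCherry libraries between and among them, at 12439 to 15776. Of 13 genes of the Myc network 3 were higher and 1, the antagonist Mxd4, lower (-0.46), beside 10.3% and 11.7% of all genes, and with the block 5 were higher and 3 lower.

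Genes of ribosome biogenesis rose in 18 of 30 and fell in 0, with a median of 0.18, against 10.3% called higher among all genes. The changes were small, and the largest, of Rrp9, was 0.31 ± 0.06. Polr1b, a subunit gene of RNA polymerase I, was at 12510.5, 12132 and 12884 against 10514, 9793 and 10442 (0.29 ± 0.04, adjusted p = 0.00018). DNA replication genes rose in 17 of 25 and fell in 0, with a median of 0.17. Cdc6, a loader of the replicative helicase, was at 6951, 6953 and 7148 against 5314, 5140.0 and 5423 (0.41 ± 0.04, adjusted p = 6.0e-06). With TMM scaling 16 and 13 genes of these lists were called, all higher. Above all WT libraries lay 9 of the 30 and 8 of the 25, beside 9.1% of all genes tested. Mitosis genes were 2 higher and 1 lower of 28 with a median of 0.036, with TMM scaling 0 higher and 1 lower, and with the block 10 higher and 3 lower.

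Among regulators of the G1 phase 8 of 22 were higher (36.4%) and 3 lower (13.6%), beside 10.3% and 11.7% of all genes. With the block 11 were higher and 6 lower. Rb1, which encodes the retinoblastoma protein that holds E2F factors in check, had the largest change. It was at 276, 261 and 315 in p53KO–emiRFP and 1111, 1127 and 1406 in WT–emiRFP (-2.09 ± 0.14, adjusted p = 2.7e-08). WT–mCherry cells were at 833 to 1194, above every mutant library. Its relative Rbl2 (-0.55) and the Cdk inhibitor gene Cdkn2b (-0.92) were the others lower, and the call of Rbl2 was lost without p53KO–emiRFP replicate 1. The cyclin genes Ccnd3 and Ccne1 rose by 0.51 and 0.41, and E2f2 by 0.55. The Cdk inhibitor genes Cdkn1b (-0.20), Cdkn1c (0.05) and Cdkn2a (-0.02) were not called.

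Apoptosis genes outside the p53 lists were counted in 2 lists, beside the same 22.1% called among all genes tested. Of 12 tested members of the BCL2 family 0 were higher and 2 lower (2 and 3 with the block), namely the killer gene Bid (-0.28 ± 0.04) and the survival gene Mcl1 (-0.14 ± 0.05). The call of Mcl1 was lost without the low-count filter, with only the 6 compared libraries, with all 69 libraries, and in each fit that left out 1 library other than WT–emiRFP replicate 2. The survival gene Bcl2 was at 129, 154 and 115 against 117, 112 and 118 (0.20 ± 0.15, adjusted p = 0.40) and overlapped. Among 15 caspase and death receptor genes 2 were higher and 1 lower, and the cytochrome c gene Cycs, at 0.22 ± 0.05, was among those higher. With TMM scaling this list had 1 higher and 3 lower, and with the block 3 higher and 6 lower. Dnm1l, which divides mitochondria, did not pass the test (0.04, adjusted p = 0.64), and the ligand gene Fasl was under the count filter, at 1.12, 3.67 and 3.02 against 0, 1.10 and 1.15. Cdh1 (-0.06) and Fut4 (-0.30) were not called and Cdh2 rose by 0.38, a call lost with all 69 libraries and without WT–emiRFP replicate 1 or 2.

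Genes of the integrated stress response rose in 9 of 20 (45%) and fell in 1, with a median of 0.10, where 10.3% of all genes were called higher and 11.7% lower. With the block 11 were higher and 3 lower. Phgdh, the first enzyme of serine synthesis, was at 20522, 22898 and 20671 against 15455, 17074 and 15668 (0.41 ± 0.05, adjusted p = 3.7e-05), and Shmt2 and Psat1, also of serine and one-carbon metabolism, rose by 0.33 and 0.32. The stress effectors Ddit3 (-0.23), Trib3 (-0.02) and Chac1 (0.05) were not called, and Atf5 fell by 0.43. Glycolysis and hypoxia genes were 6 higher (25%) and 1 lower of 24, against the same shares of all genes, with a median of 0.12. With the block 12 were higher and 1 lower. Ldha, which makes lactate, rose by 0.21, from 70607, 66391 and 64094 to 77216, 79459 and 75710.1, but was at 95131 to 104087 in WT–mCherry cells. The call of Ldha was not kept under every alternative processing.

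All 12 tested transcripts of the mitochondrial genome had negative estimates and 9 were called lower (75%, beside 11.7% of all genes), with a median of -0.45. The complex I transcript mt-Nd2 was at 56379, 46122 and 54674 against 71814, 75269 and 73701 (-0.49 ± 0.06, adjusted p = 4.7e-05), and the abundant mt-Co1 fell by 0.41. All 9 lay below the WT libraries, as did 70.8% of the genes called lower and 10.2% of all genes tested. The calls of mt-Nd2, mt-Nd4 and mt-Co3 were not kept under every alternative processing. The lower mitochondrial share of the mutant libraries is the same measurement, and its part in the other results was not tested.

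Imprinted genes moved in both directions, 10 higher (37.0%) and 6 lower (22.2%) of 27, beside 10.3% and 11.7% of all genes. With the block 11 were higher and 10 lower. Igf2, a fetal growth factor gene, was at 47.2, 37.9 and 48.3 against 13.0, 22.1 and 4.62 (1.73 ± 0.34, adjusted p = 0.0019). Kcnq1ot1 and Phlda2, of the same imprinted cluster, rose by 0.67 and 0.71. The noncoding RNAs Meg3, Rian and Mirg, of another cluster, fell, with log2 fold changes of -0.32, -0.29 and -0.47. Nap1l5 was at 16.8, 7.34 and 11.1 against 34.2, 39.8 and 28.9 (-1.52 ± 0.26, adjusted p = 0.00064) and at 147 to 184 in WT–mCherry, so both emiRFP clones were low.

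Genes of the 2-cell-like state, a rare state of mES cells that resembles the embryo at zygotic genome activation, were lower in 7 of 15 (46.7%, beside 11.7% of all genes) and higher in 2 (13.3%, beside 10.3%). Tmem92 was at 38.2, 41.6 and 41.3 against 89.5, 103 and 79.6 (-1.17 ± 0.16, adjusted p = 6.0e-05), with WT–mCherry cells higher than both, at 182 to 272. Zscan4a, Zscan4c, Zscan4d, Zscan4e and Zscan4f fell, with log2 fold changes of -0.95, -0.91, -0.84, -0.81 and -0.74. These are near-identical copies among which counts could be split, so single values are uncertain and the 46.7% rests largely on related copies. The list's mean log2 of normalized counts plus 1 was 6.48 to 6.79 in p53KO–emiRFP and 6.96 to 7.23 in WT–emiRFP. In the WT–mCherry libraries it was 7.59 to 8.44, so the WT clones differed too. The 2 genes called higher, Dppa2 and Dppa4, also belong to the naive list and rose by 0.20 and 0.20.

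Markers of other fates were counted in 4 lists, beside 22.1% called among all genes tested. Primitive endoderm markers were 1 higher and 2 lower of 11 (2 and 3 with the block), and their summed level was 6219 to 6375 in p53KO–emiRFP and 6119 to 6899 in WT–emiRFP. Cubn, an endocytic receptor gene, was at 57.3, 51.4 and 34.2 against 327, 277 and 128 (-2.37 ± 0.50, adjusted p = 0.0029). Trophoblast markers, with summed levels of 5308 to 5543 against 5022 to 5342, gave 1 call of 9 (3 with the block), Hand1, at 75.2, 79.6 and 62.4 against 29.4, 29.8 and 34.6 (1.20 ± 0.19, adjusted p = 0.00034). Neural and later mesodermal markers were higher in 4 and lower in 0 of 9, against 10.3% called higher among all genes. Of the 9, 2 lay above all WT libraries, beside 9.1% of all genes tested. The summed levels of these markers were 2784 to 3234 against 2174 to 2316, mostly from the tubulin gene Tubb3 (0.40 ± 0.07). Kdr, a receptor gene of vascular growth factors, rose by 1.98 from 5.89, 6.63 and 3.46 to 26.9, 14.7 and 22.2, with WT–mCherry libraries at 10.8 to 18.6. Germ cell markers gave 1 call of 6 (3 with the block), Dppa3. Their summed level was 2592 to 2803 against 2191 to 2213, and at 2228 to 2953 the WT–mCherry libraries covered the mutant range.

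The contrast of the clones before aggregation, at 0 h, shares no library with that at 48 h and shows which differences the clones had as mES cells. At 0 h the labels name no sorting, neighbours or seeding numbers, and the paper kept its mES cells in a medium with serum and LIF. Time, medium, sorting and neighbours therefore changed together between 0 h and 48 h and cannot be told apart. All 12 of the largest falls were also negative at 0 h, with log2 fold changes of -7.38 to -1.99, and 10 of the 12 rises were positive. Trp53 differed by -3.36 at 0 h, and the difference between the times was not called (0.22, adjusted p = 0.25). The median of all p53 targets was -0.83 at 0 h, -1.08 at 48 h and -1.19 at 72 h. An interaction test of 19208 genes called 764, of which 322 (1.68%) were more positive and 442 (2.3%) more negative at 48 h than at 0 h. With the replicate block 2152 were called, with DESeq2 1155, with all 69 libraries 1265, and with 1 library left out 462 to 1009.

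Of the 66 p53 targets tested 14 had a more negative change at 48 h and 1 a more positive one, where 2.3% and 1.68% of all genes did. Cdkn1a differed by -2.72 between the times (adjusted p = 7.8e-08). At 0 h it was at 424, 385 and 349 in p53KO–emiRFP against 2122, 1609 and 1541 in WT–emiRFP, so the mutant level was lower at 48 h and the WT level was not. Plk2 and Inpp5d had differences of -2.43 and -2.60. Vgf, a gene for secreted neuropeptide precursors, had the largest difference of the named genes, -3.14 (adjusted p = 4.9e-06). It was higher in the mutant at 0 h, with 106, 125 and 166 against 79.1, 59.6 and 70.9, and lower at 48 h, with 47.2, 94.3 and 87.6 against 362, 341 and 374. Sulf2, an extracellular sulfatase gene, had a log2 fold change of -0.24 at 0 h and -2.51 at 48 h (difference -2.27). Bhlhe41, a repressor of the circadian clock, went from 0.94 to -0.92.

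The formative genes Fgf5 and Otx2 also differed between the times. Fgf5 was at 88.2, 111 and 133 against 36.4, 52.3 and 64.6 at 0 h and slightly lower in the mutant at 48 h, a difference of -1.35 (adjusted p = 0.00014). For Otx2 the log2 fold change was 1.00 at 0 h and -0.04 at 48 h (difference -1.04, adjusted p = 3.4e-05). Of 23 formative genes 8 were more negative at 48 h and 1 more positive, and of 20 naive genes 9 were more positive and 0 more negative, where 2.3% of all genes tested were called more negative and 1.68% more positive. Gbx2 (1.42), Nr5a2 (0.96), Tcl1 (0.87) and Klf4 (0.50) were among the latter. The median log2 fold change of naive genes was -0.19 at 0 h and 0.20 at 48 h, and that of formative genes 0.15 and 0.024. Nanog differed by -0.42 and -0.44. Myc was at 3605, 3467 and 3385 against 3472, 3600.2 and 3363 at 0 h, overlapping, and its difference between the times was called (0.72, adjusted p = 0.0011), as were those of Axin2 (0.54) and Wnt3 (-1.34).

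Among called genes that averaged 1 log2 CPM or more over the libraries of both times and whose changes at the 2 times did not overlap, the 6 with the most positive difference were Pla2g4e, Myh13, Eprn, Mras, Tgfbi and Ddr2. All 6 had negative estimates at 0 h and were higher in the mutant at 48 h, and for all 6 the WT–mCherry libraries overlapped the p53KO–emiRFP range at 48 h. At 48 h alone only Eprn reached that level, with a mean log2 CPM of 1.41, and the other 5 were at -1.42 to 0.78, so their 48 h values rest on low counts. Mras, a small GTPase gene of the Ras family, passed through its level at 0 h, where it was at 3385, 3345 and 3117 against 5283, 4592 and 4552, and was at 31.4, 37.9 and 28.2 against 14.1, 14.4 and 13.9 at 48 h.

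**Figure D5:**
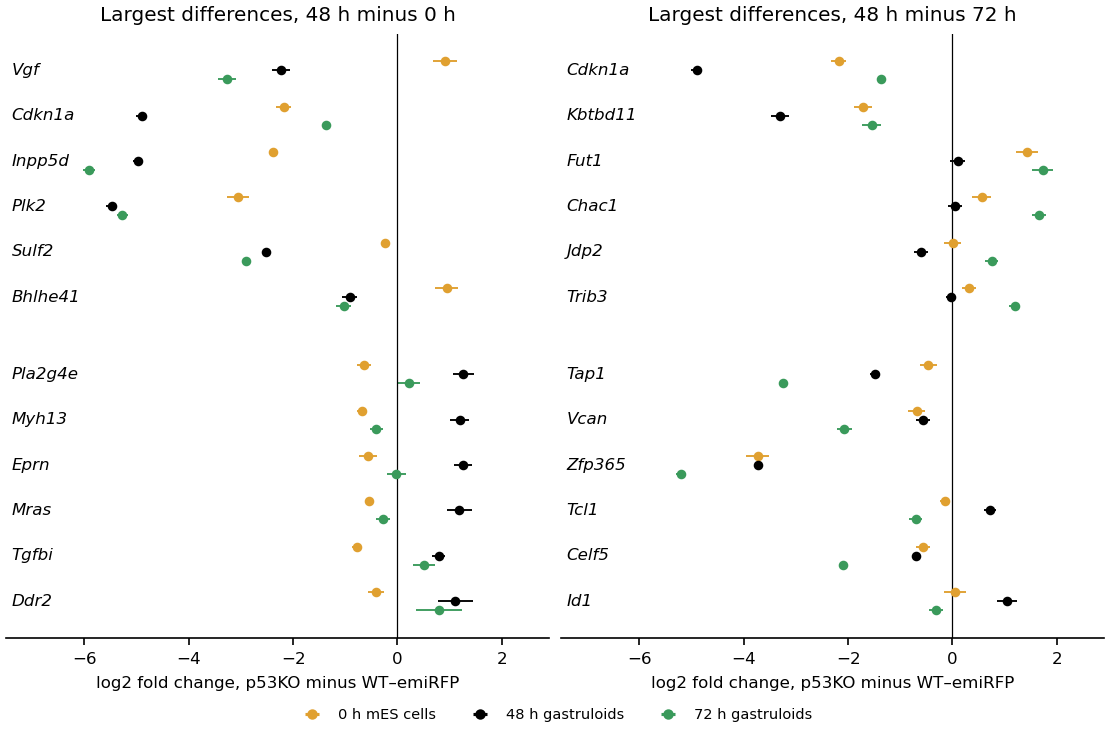
Log2 fold changes, p53KO minus WT–emiRFP, with SE bars at 0 h, 48 h and 72 h for the genes with the 6 largest differences in each direction between 48 h and 0 h (left) and between 48 h and 72 h (right), n = 3 per group, among called genes that averaged 1 log2 CPM or more over the libraries of both times and whose changes at the times compared did not overlap. Cdkn1a is at -4.90 at 48 h, -2.18 at 0 h and -1.38 at 72 h.

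Between 48 h and 72 h, the interaction test of 18561 genes called 659, of which 401 (2.16%) were more positive and 258 (1.39%) more negative at 48 h. The standard protocol gives the ChIR pulse from 48 h to 72 h, so time and this treatment cannot be told apart here. With the block 1884 were called, and with all 69 libraries 372. Cdkn1a had a log2 fold change of -4.90 at 48 h and -1.38 at 72 h (difference -3.53, adjusted p = 5.8e-16). At 72 h its counts were 6485, 5817 and 6102 in p53KO–emiRFP and 16908, 15439 and 15441 in WT–emiRFP, above those of 48 h in both. Kbtbd11, a BTB and kelch domain gene, was at 65.1, 58.8 and 63.4 against 636, 578 and 644 at 48 h, and its difference was -1.76. Chac1 and Trib3 were not called at 48 h and differed by 1.66 and 1.19 at 72 h. Of 20 stress response genes 13 were more negative at 48 h than at 72 h, where 1.39% of all genes were, and their median was 0.10 at 48 h and 0.63 at 72 h. Pmaip1 was at 0.16 and 1.02 (difference -0.85, adjusted p = 9.5e-07).

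In the other direction, several changes were more negative at 72 h. Tap1, the peptide transporter gene of antigen presentation, was at 249, 306 and 264 against 759.7, 757 and 771 at 48 h (-1.48 ± 0.09) and differed by -3.25 at 72 h. Vcan, a matrix proteoglycan gene, and Celf5, an RNA-binding protein gene, went from -0.57 and -0.69 to -2.07 and -2.10, and Zfp365 from -3.72 to -5.21. Tcl1 and Id1, higher in the mutant at 48 h, had log2 fold changes of -0.71 and -0.31 at 72 h. Of the 66 p53 targets tested 13 were more positive at 48 h than at 72 h and 3 more negative, where 2.16% and 1.39% of all genes were. Bbc3 had log2 fold changes of -2.23, -2.45 and -2.52 at 0 h, 48 h and 72 h, with neither difference called.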

How the data were processed

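Poly(A) RNA of sorted cells, or at 0 h of mES cells not labelled as sorted, was sequenced in stranded libraries, 3 per group. The authors trimmed the reads (Trim Galore 0.6.7), aligned them to GRCm38.p6 (STAR 2.7.11b, both per the submitters' processing notes) and deposited raw counts per gene. The counts were divided by median-of-ratios size factors over all 69 libraries and tested with edgeR 4.0.16 in R 4.3.3 (quasi-likelihood test, 12 libraries of 48 h, filterByExpr by group, Benjamini-Hochberg adjustment, threshold 0.05). Standard errors are derived from the F statistics. Changes at 48 h were compared with those at 0 h (21 libraries) and 72 h (24 libraries) by interaction terms. These fits were tested on simulated data. Named genes were the 12 largest falls and rises called, without overlap between groups and with an average level of 1 log2 CPM or more, the 6 largest interactions in each direction, the most changed called members of each list (up to 4) and genes the study follows. Other list members are named as examples, chosen after their values were seen. The members and lists were chosen with earlier results of these data known. An exact test of 3 against 3 libraries cannot go below p = 0.1.

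The replicate numbers paired the samples. Deviations from the group means of same-numbered p53KO–emiRFP and WT–emiRFP libraries correlated at 0.353, 0.411 and 0.558 over 13415 genes, so a fit with the replicate block is given beside the counts of genes called and beside each list whose higher or lower calls it moved by over 1.5 times. Replicates differed by 8.23 to 13.8 times the sampling variance, and none was a copy of another. Alternatives were TMM scaling, no low-count filter, DESeq2 1.42.0, other sets of libraries in the fit and leaving out each library. The result for 1 of the genes tested is left out of the text.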

Additional observations from a re-analysis of the deposited data

Results flagged for a closer look

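The p53KO–emiRFP minus WT–emiRFP log2 fold change of 48 h differed from that of another time, by edgeR's interaction test with adjusted p under 0.05, for 764 genes against 0 h and 659 genes against 72 h. Values beside genes are differences of log2 fold changes, 48 h minus the other time, with n = 3 per group. Culture conditions differed between the times too and cannot be told apart from time.

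Among named genes lower in the mutant at 48 h, the change was more negative than at 0 h for Vgf (-3.14), Cdkn1a (-2.72), Inpp5d (-2.60), Plk2 (-2.43), Dnaic1 (-2.33), Sulf2 (-2.27), Bhlhe41 (-1.86), Alox5 (-1.79), Dcxr (-1.64), Kbtbd11 (-1.59), Lif (-1.48), Trp53inp1 (-1.41), Fgf5 (-1.35), Wnt3 (-1.34), Got1l1 (-1.31), Ccng1 (-1.25), Lefty1 (-1.21), Cd80 (-1.15), Tap1 (-1.02), Ddit4l (-1.01), Cpt1c (-0.90), Lefty2 (-0.81), Ptp4a3 (-0.80) and Ercc5 (-0.57). Among named genes not called at 48 h, the change was more negative than at 0 h for Fut1 (-1.33) and Otx2 (-1.04). Among named genes lower in the mutant at 48 h, the change was more positive than at 0 h for Col4a1 (0.56). Among named genes higher in the mutant at 48 h, the change was more positive than at 0 h for Kdr (2.36), Pla2g4e (1.90), Myh13 (1.88), Eprn (1.82), Mras (1.74), Tgfbi (1.57), Ddr2 (1.52), Gbx2 (1.42), Foxa2 (1.40), Zp3 (1.14), Sfmbt2 (0.97), Nr5a2 (0.96), Tcl1 (0.87), Myc (0.72), Glod5 (0.67), Peg10 (0.67), Nrgn (0.67), Dnmt3l (0.65), Sparc (0.59), Pax6 (0.58), Axin2 (0.54), Spry4 (0.52), Mycn (0.41), Shmt2 (0.39), Rrm2 (0.32) and Cdc6 (0.31). Among named genes not called at 48 h, the change was more positive than at 0 h for Klf4 (0.50).

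Among named genes lower in the mutant at 48 h, the change was more negative than at 72 h for Cdkn1a (-3.53), Kbtbd11 (-1.76), Jdp2 (-1.35), Lefty2 (-0.78), Wnt3 (-0.78), Nodal (-0.70), Egln3 (-0.49), Atf5 (-0.45) and Nanog (-0.34). Among named genes higher in the mutant at 48 h, the change was more negative than at 72 h for Pmaip1 (-0.85), Psat1 (-0.67), Shmt2 (-0.39) and Ccna2 (-0.24). Among named genes not called at 48 h, the change was more negative than at 72 h for Fut1 (-1.63), Chac1 (-1.61), Trib3 (-1.21) and Dnmt3b (-0.57). Among named genes lower in the mutant at 48 h, the change was more positive than at 72 h for Tap1 (1.76), Dscaml1 (1.73), Vcan (1.51), Zfp365 (1.49), Plcd4 (1.41), Celf5 (1.41), Alox5 (1.30), Vgf (1.03), Cpt1c (1.01), Inpp5d (0.94), Mxd4 (0.63) and Sulf2 (0.38). Among named genes higher in the mutant at 48 h, the change was more positive than at 72 h for Kdr (1.80), Myh13 (1.60), Mras (1.46), Tcl1 (1.43), Id1 (1.35), Eprn (1.28), Gbx2 (1.11), Peg10 (0.81), Nr5a2 (0.75), Sparc (0.56) and Axin2 (0.46). Among named genes not called at 48 h, the change was more positive than at 72 h for Esrrb (0.52).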

How the results depend on the processing

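With the replicate block, 7259 genes were called at 48 h, 3945 higher and 3314 lower, and 2152 and 1884 had a different change at 0 h and 72 h. The block ended no call of a named gene at 48 h. Requiring an absolute log2 fold change of at least 1 left 521 genes, 140 higher and 381 lower, and 265 and 146 for the differences from 0 h and 72 h. With all 69 libraries in the fit these differences were called for 1265 and 372 genes, and with DESeq2 the difference from 0 h for 1155. With only the 6 compared libraries the median of the p53 targets was -1.06. Leaving out 1 library gave 2908 to 3123 called genes, 1207 to 1360 higher and 1569 to 1763 lower, a Trp53 log2 fold change of -3.17 to -3.10, a median of the p53 targets of -1.09 to -1.07, and 462 to 1009 and 474 to 698 genes with a different change at 0 h and 72 h. The count higher was 1207 without WT–emiRFP 48 h replicate 2. The count differing from 0 h was 468 without p53KO–emiRFP 0 h replicate 3, 462 without p53KO–emiRFP 48 h replicate 1 and 495 without WT–emiRFP 48 h replicate 2. The cause of these shifts was not tested. TMM scaling called 3743 genes, 40.1% of them higher against 46.8%, and 3576 were shared with the 3896. Without the low-count filter 3910 genes were called and 3340 of them shared. With all 69 libraries in the fit 2953 were called, 1262 of them higher, and 2758 were shared. Log2 fold changes that were not called changed sign when 1 library was left out for Esrrb (-0.090 to 0.018), Otx2 (-0.087 to 0.0026), H2bc14 (-0.24 to 0.055) and H2bc7 (-0.27 to 0.015). Over all alternatives at 48 h, 1415 values for single genes kept their direction and side of the threshold, 89 lost the call and 2 gained one. The lost calls were those of Casp2, Ccna2, Cdh2, Col4a1, Fgf5, Foxa2, Heatr1, Kif23, Ldha, Mcl1, Mxi1, Nusap1, Pfkp, Plagl1, Pmaip1, Rbl2, Sparc, Tal1, Tbx6, Tdgf1, mt-Co3, mt-Nd2 and mt-Nd4, each under at least 1 alternative.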
